A study of Mus musculus with 13 samples.

Results

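Fibroblasts of the pubertal mouse mammary gland were set against those of the adult virgin gland, using 1 single-cell library of each stage. A barcode was taken as a fibroblast when it held 500 to 7500 genes, at most 10% mitochondrial UMIs (unique molecular identifiers, 1 per captured RNA molecule) and at least 50 UMIs of Dcn, Lum and Col1a2 together per 10000 UMIs. Barcodes with any UMI of Epcam, Pecam1, Rgs5, Sox10, Ptprc or Myog, which mark epithelium, endothelium, pericytes, Schwann cells, leukocytes and muscle precursors, were left out. This gave 19072 fibroblasts, 7121 in puberty and 11951 in the adult, of 100523 fibroblasts in the 13 libraries of the series. The study profiled mammary stroma across postnatal stages, after hormone pellets and in Wnt1-driven hyperplasia and tumours. Both groups here were untreated wildtype C57BL/6 females, labelled as 4 weeks old for puberty and as 9-week virgins for the adult, although the methods of the study give pubertal mice a slightly higher age. Cells were sorted as negative for CD24 and for the blood and endothelial lineage markers, pooled from 2 females per stage and run on the 10x 3′ v3 chemistry. The 2 libraries of 9-week wildtype C57BL/6 females carrying placebo pellets, placebo 1 and placebo 2, served as a yardstick and not as replicates of the adult.

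At puberty the mammary ducts elongate through the fat pad under ovarian hormones and growth hormone, and the fibroblasts around them deposit the collagen and elastic fibres of the growing stroma. Fibrillar collagens are secreted as long triple helices, trimmed and crosslinked outside the cell, and bound by partners such as SPARC. By adulthood the ductal tree of the virgin gland has filled the fat pad.

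The fibroblasts carried 48727126 UMIs in puberty and 73843100 in the adult, with medians of 6663 and 5805 UMIs per cell. The placebo libraries were deeper, with medians of 14158 and 12475. Fibroblasts made up 84.7% of the barcodes that passed the limits on genes and mitochondrial UMIs in puberty and 93.1% in the adult. The median share of mitochondrial UMIs was 3.26% and 2.53%, and 34 barcodes occurred in both libraries (0.477% of the pubertal fibroblasts). Fibroblast markers in these cells were set by the rule and are no check of the labelled cell type. Of 7 milk protein genes, 6 were at 0 in puberty and 4 in the adult. UMIs were summed over the fibroblasts of a library and given as CPM, the UMIs of a gene per 1000000 UMIs of the library's fibroblasts. With 1 library per stage there was no replicate check and no test, and the intervals below are exact 95% intervals (Clopper-Pearson) that cover counting error only. In such sums, fewer cells of a kind and less RNA per cell cannot be told apart.

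Most genes had like levels at both ages. Of 9413 genes with a mean of at least 5 CPM over the 2 libraries, 80 (0.850%) were at least 2-fold higher in puberty and 67 (0.712%) at least 2-fold lower, or 147 (1.56%) in all. Among the most abundant of these 147 genes were fibrillar collagens with Sparc and Eln, all higher in puberty. In the lower of the 2 libraries, 29 of the 80 and 27 of the 67 genes were under 5 CPM. These passed the level filter only through the other library. The median over all genes was a log2 difference of -0.10. At the limit of 2-fold, Arl4c had 36.1 CPM in puberty against 18.01 in the adult, a ratio of 2.01, and was counted, whereas Il31ra had 32.7 and 16.5 CPM, a ratio of 1.99, and was not.

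**Figure D1:**
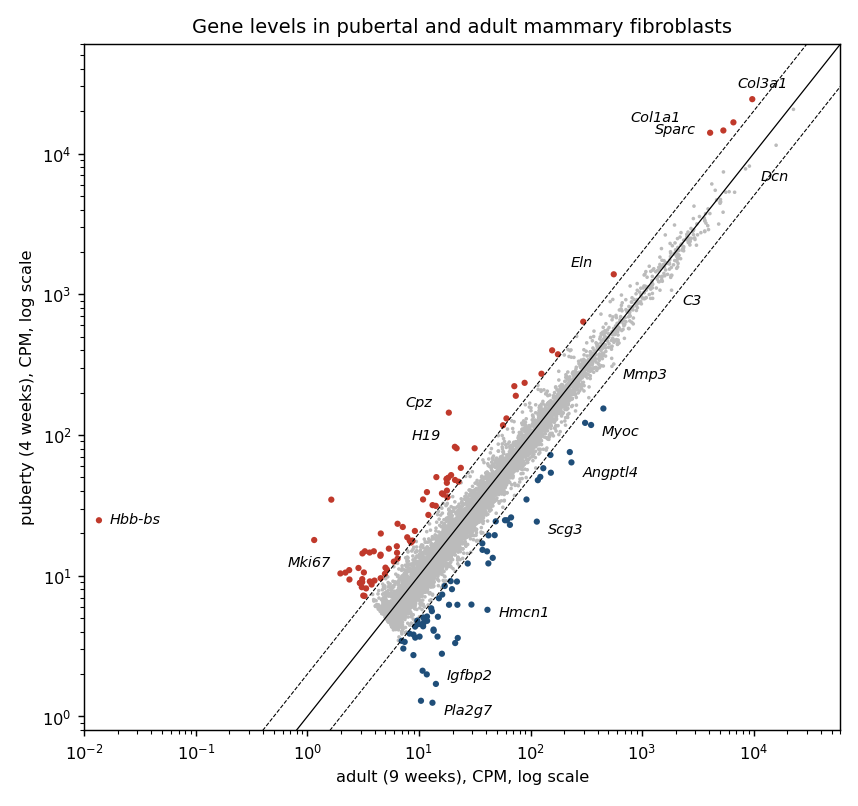
Each point is 1 of the genes with a mean of at least 5 CPM, placed by its CPM in the adult (horizontal, log scale) and in puberty (vertical, log scale); the solid line marks equal levels, the dashed lines 2-fold, and red and blue the 80 genes higher and the 67 genes lower in puberty. Col3a1, Col1a1 and Sparc stand above the upper dashed line at the right end, and Hbb-bs lies far from the other genes on the left.

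The adult library differed by 2-fold from each placebo library in more genes than from puberty. The adult was past 2-fold from placebo 1 in 343 of 9526 genes (3.60%) and from placebo 2 in 341 of 9391 (3.63%), and the placebo libraries were past 2-fold from each other in 47 of 9422 (0.499%). Puberty was past 2-fold from placebo 1 in 547 of 9496 genes (5.76%) and from placebo 2 in 535 of 9370 (5.71%). Stage, pellet, depth and library cannot be told apart in these counts. Of the 9413 genes, 1889 (20.1%) were higher in puberty than in any of the 3 libraries at 9 weeks and 3505 (37.2%) lower than in any. For this reason the levels in the placebo libraries are given, in the order placebo 1 and placebo 2, beside the 2 stages for most genes described. Counts of list members past 2-fold are to be read against the 0.850% and 0.712% over all genes, and counts outside the 9-week range against 20.1% above and 37.2% below.

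The main fibrillar collagens had the largest CPM differences among the genes named. Col1a1 (chr11:94936224-94953042, GRCm38), which encodes the α1 chain of type I collagen, had 14043 CPM in puberty against 4074 in the adult, 7082 in placebo 1 and 6155 in placebo 2. Its ratio of puberty to adult was 3.45 (3.43 to 3.46). Col3a1, the type III collagen chain, had 24326, 9721, 12670 and 10018 CPM in the same order, a ratio of 2.50. Col1a2, the α2 chain of type I, had 16647, 6588, 9098 and 7808 CPM, a ratio of 2.53. It is a gene of the rule that chose the cells, so its level is partly fixed by that choice. For each of these collagens the pubertal library was the highest of the 4 and the adult the lowest. Against placebo 1 the ratios were 1.98, 1.92 and 1.83 for Col1a1, Col3a1 and Col1a2, under 2-fold, and against placebo 2 they were 2.28, 2.43 and 2.13. Together they took 5.50% of all fibroblast UMIs in puberty and 2.04% in the adult. Type V collagen, which sets the width of type I fibrils, was higher by less than 2-fold, with 886.6 and 518.0 CPM of Col5a1 and 1145 and 782 CPM of Col5a2. Of 11 listed fibrillar collagens 7 passed the level filter, 3 were at least 2-fold higher and 0 lower, with a median log2 difference of 0.78.

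The gap was spread over the cells rather than held by a few. Counted per 10000 UMIs of a cell, Col1a1 and Col3a1 together had a median of 357 UMIs in puberty against 107 in the adult, with 134 and 105 in the placebo libraries. In puberty 10% of the fibroblasts had under 187 UMIs, and in the adult 10% had over 244. The 10th percentile of the pubertal cells thus stood above the adult median. For Sparc the median was 133 in puberty and 42.4 in the adult, with the pubertal 10th percentile at 72.7. Dcn, the small proteoglycan decorin that coats collagen fibrils, had medians of 75.9 and 84.4 per 10000, with overlapping ranges, but like Col1a2 it is a gene of the rule, which partly fixes its level.

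**Figure D2:**
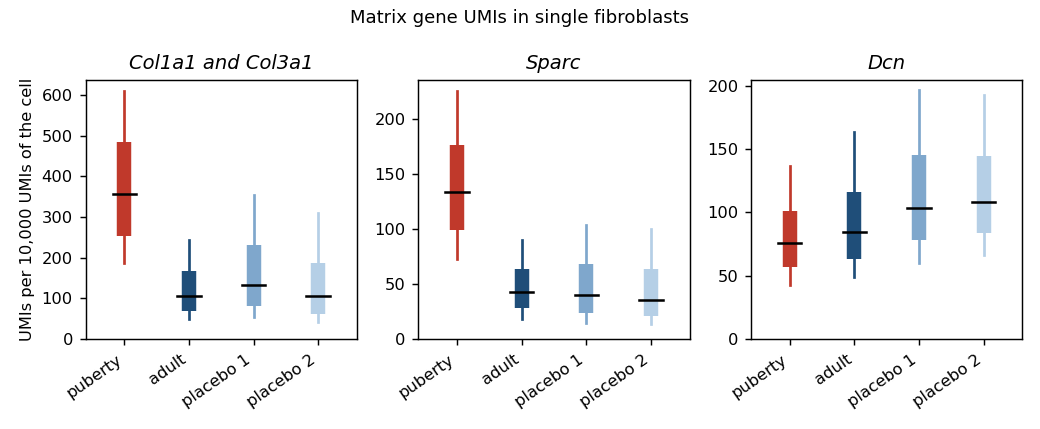
UMIs of Col1a1 with Col3a1, of Sparc and of Dcn per 10000 UMIs of the cell (vertical axes, linear, from 0) in the fibroblasts of 4 libraries; the black line is the median over cells, the thick bar the middle 50% and the thin line the 10th to the 90th percentile. The pubertal medians of 357 and 133 stand above the thick bars of the 3 libraries at 9 weeks for the collagens and Sparc, but Dcn, a gene of the rule that chose the cells, is lowest in puberty.

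Genes for fibre assembly were divided. Sparc (chr11:55394500-55423183), a secreted collagen-binding glycoprotein, had 14575 CPM in puberty and 5353 in the adult, with 5784 and 5425 in the placebo libraries, a ratio of 2.72 (2.71 to 2.73). Eln, which encodes elastin, had 1386 CPM against 557.5, 516 and 472, a ratio of 2.49. Mfap2, a microfibril glycoprotein, had 399 CPM against 156, 196 and 198, and Fbn2, the fibrillin of developing tissue, had 80.5 against 31.6, 58.3 and 41.5. The 3 libraries at 9 weeks lay close together for Sparc and Eln and far below puberty. Fbn1, the fibrillin of adult tissue, had 1628 and 1445 CPM, a ratio of 1.13. Of 18 measured elastic fibre genes 3 were at least 2-fold higher and 0 lower, with a median log2 difference of 0.03. Of 22 matricellular genes Sparc alone passed 2-fold, and their median was -0.03.

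Enzymes and chaperones that process collagen differed little. Among 22 such genes 0 passed 2-fold in either direction, and the median log2 difference was 0.19. Serpinh1, the collagen chaperone of the endoplasmic reticulum, had 2549 CPM in puberty, 2188 in the adult, and 1798 and 1686 in the placebo libraries. Lox, which crosslinks collagen and elastin, had 157 and 124 CPM, inside the range of the 9-week libraries. Still, 12 of the 22 stood above the 9-week range and 1 below, beside 20.1% and 37.2% over all genes. Of 30 secretory pathway genes 0 passed 2-fold, and their median was -0.04. Among 15 other collagens Col4a4, a basement membrane chain, had 31.7 CPM in puberty and 13.2 in the adult (ratio 2.40), with 14.1 and 12.3 in the placebo libraries. Col6a6 had 46.6 against 22.6, 29.7 and 29.9 (2.06), and Col13a1, a membrane-bound collagen, was lower, with 1.99 CPM against 11.8, 18.8 and 15.3 (0.169).

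**Figure D3:**
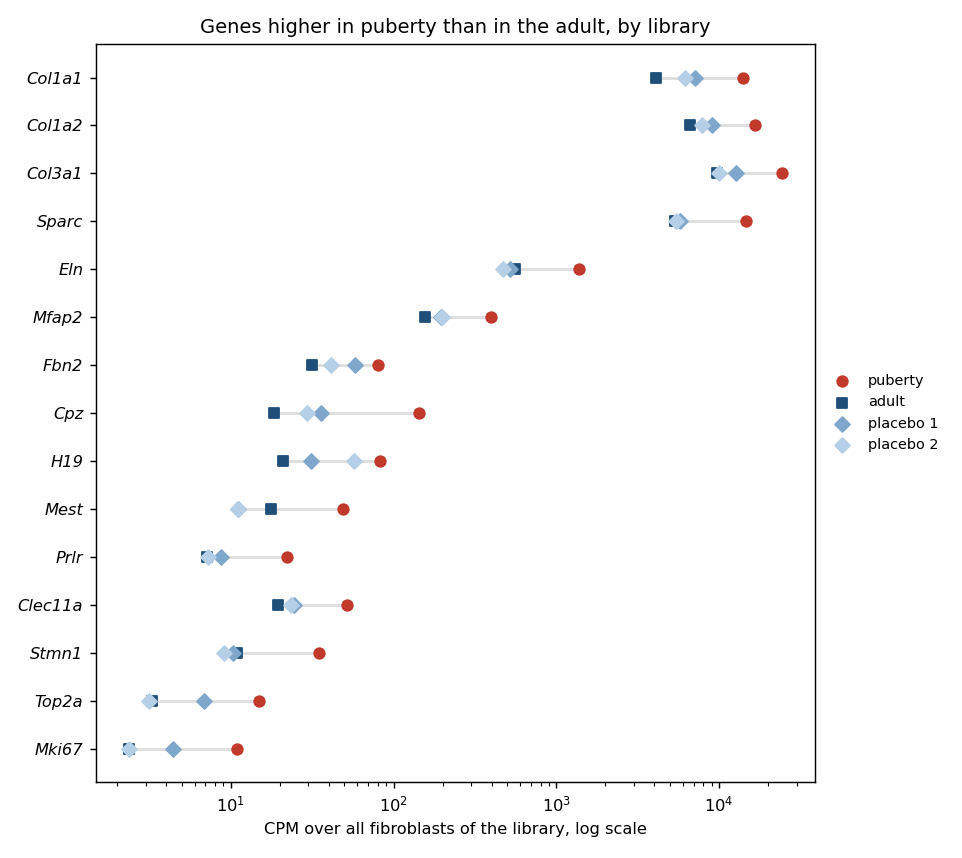
CPM (horizontal, log scale) of 15 genes at least 2-fold higher in puberty than in the adult, with red circles for puberty, dark squares for the adult and diamonds for placebo 1 and placebo 2. Puberty is the highest of the 4 libraries for each gene, and the placebo libraries often lie between the stages, as for Fbn2 (80.5, 58.3, 41.5 and 31.6 CPM from puberty to the adult).

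Among genes of moderate level, Cpz had the highest ratio that was spread over many cells. Cpz (chr5:35502218-35525698), a secreted carboxypeptidase that can bind Wnt proteins, had 144 CPM in puberty against 18.5 in the adult, 35.6 in placebo 1 and 29.3 in placebo 2. Its ratio was 7.78 (7.34 to 8.25). After each cell was thinned to 2000 UMIs, 22.1% of 6682 pubertal and 3.01% of 11312 adult fibroblasts held a Cpz UMI (46.1% and 9.00% without thinning). In barcodes below the fibroblast threshold with endothelial markers, which should lack the gene, it was 1 of 69 (median 1219 UMIs) in puberty and 0 of 54 (median 1477 UMIs) in the adult. Pi15, a secreted protease inhibitor, had 222 CPM against 71.6, and 87.3 and 110 in the placebo libraries, a ratio of 3.10. It was found in 29.1% of thinned pubertal and 10.5% of thinned adult cells (52.97% and 25.2% unthinned), and in 1 of 69 and 0 of 54 of the endothelial barcodes. Pdgfrl, a receptor-like protein without a kinase, had 80.5, 21.8, 29.6 and 33.4 CPM (ratio 3.70), and Nrk, an X-linked kinase known from the placenta and embryonic muscle, had 50.2, 14.3, 11.9 and 11.3 CPM (3.50). Ecrg4, a precursor of secreted peptides, had 23.4, 6.43, 5.36 and 6.48 CPM (3.64). For Cpz, Pi15, Pdgfrl, Nrk and Ecrg4 puberty was above all 3 libraries at 9 weeks.

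Imprinted genes, which are read from 1 parental copy and many of which act on growth before and soon after birth, were above the adult by any amount in 13 of 16 measured cases, beside 31.7% of all genes. H19, a noncoding RNA next to Igf2, had 82.4 CPM in puberty against 20.99 in the adult, 31.3 in placebo 1 and 57.3 in placebo 2, a ratio of 3.92 (3.70 to 4.16). Dlk1, a membrane protein that restrains fat cell formation, had 10.5, 2.19, 4.45 and 7.06 CPM (4.80, 4.01 to 5.76). It was under 5 CPM in the adult and passed the level filter only through its pubertal level. The 10 cells with most Dlk1 UMIs held 27.5% of them in puberty and 38.9% in the adult. Mest had 48.9, 17.8, 11.03 and 11.1 CPM (2.75). For H19 and Dlk1 the placebo libraries spanned much of the gap between the stages, and for Mest they did not. Without reaching 2-fold, Meg3, the noncoding RNA of the Dlk1 cluster, had 3103 and 1953 CPM (1.59), and Plagl1, a zinc finger factor, had 126 and 67.9 (1.85). Of 16 measured imprinted genes 3 were at least 2-fold higher and 0 lower, with a median log2 difference of 0.47, and 10 stood above the 9-week range and 1 below, beside 20.1% and 37.2% over all genes. Igf2 itself was near the floor, at 2.32 and 0.650 CPM.

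Of 50 listed genes of division and DNA replication 25 passed the level filter. Of these, 9 were at least 2-fold higher in puberty and 0 lower, with a median log2 difference of 0.42. Except for Stmn1, the 9 genes were under 5 CPM in the adult and passed the filter only through their pubertal level. Top2a, the topoisomerase that untangles chromosomes, had 14.9 CPM in puberty against 3.28 in the adult, 6.82 in placebo 1 and 3.16 in placebo 2 (ratio 4.55, 3.93 to 5.29). Mki67, the proliferation marker, had 10.96, 2.37, 4.45 and 2.36 CPM (4.62, 3.89 to 5.52). Cenpf, a kinetochore protein, had 10.4 and 1.98 CPM, a ratio of 5.25, with 4.55 and 1.37 in the placebo libraries. Its ratio was 8.05 with a fibroblast threshold of 100, and the 10 cells with most of it held 72.6% of its adult UMIs. Prc1, Kif11, Ube2c, Stmn1, Birc5 and Cenpa, which build the spindle, drive exit from mitosis or load centromeres, had ratios of 2.70 to 3.94. Placebo 1 stood between the stages for Top2a and Mki67, and placebo 2 stood at the adult level. Of the 25 genes 17 stood above the 9-week range and 0 below, beside 20.1% and 37.2% over all genes, and 3 were lower than in the adult by less than 2-fold. Summed, the 9 genes had 123 CPM against 34.2 (ratio 3.60, 3.44 to 3.77), but they were chosen for passing 2-fold in these same counts. Over all 50 listed genes the sums were 1688 CPM in puberty and 1544 in the adult, a ratio of 1.09. Pcna, which is used in DNA repair as well as replication, had 53.4 and 53.1 CPM. The replication-linked histone gene Hist1h2ap had 19.9 CPM in puberty, 4.55 in the adult, and 0.965 and 0.333 in the placebo libraries, with 35.7% of its UMIs in 10 pubertal cells and 76.5% in 10 adult cells. Hist1h1c, a linker histone, had 39.3, 11.8, 17.9 and 17.9 CPM. Hist1h2ap has near-identical copies in its gene cluster, so its reads are uncertain between copies.

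These UMIs came from few cells. After thinning to 2000 UMIs, 104 of 6682 pubertal fibroblasts (1.56%, 1.27 to 1.88) and 35 of 11312 adult fibroblasts (0.309%) held a UMI of Mki67 or Top2a, with 3.03% and 0.728% without thinning. The 10 cells with most Mki67 UMIs carried 27.2% of them in puberty and 57.1% in the adult. No set of barcodes known to lack these 2 genes was used as a background. In the endothelial barcodes 2 of 69 in puberty and 0 of 54 in the adult held a UMI of Mki67 or Top2a. A part for free RNA in these shares was not tested.

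The upstream sequences of 3 of the division genes are shown because their promoters are known to carry CCAAT boxes and cell cycle homology elements, and that of Col1a2 because it is the collagen gene in the same table with such a box. Each is the 250 bases before the RefSeq transcription start (GRCm38.p6), written 5′ to 3′ on the strand of the gene, with every match to CCAAT or to TTTGAA, on either strand, in capitals. Matches on the other strand read ATTGG and TTCAAA, and in the Ube2c sequence 2 matches to CCAAT, 1 on each strand, overlap in the run CCAATTGG.
Top2a, chr11:99024190-99024439, minus strand: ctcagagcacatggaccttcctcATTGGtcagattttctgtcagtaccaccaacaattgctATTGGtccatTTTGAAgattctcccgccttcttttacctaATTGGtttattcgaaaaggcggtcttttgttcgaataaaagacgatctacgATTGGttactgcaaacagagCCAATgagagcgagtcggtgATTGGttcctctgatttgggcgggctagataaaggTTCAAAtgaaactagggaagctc
Ube2c, chr2:164769679-164769928, plus strand: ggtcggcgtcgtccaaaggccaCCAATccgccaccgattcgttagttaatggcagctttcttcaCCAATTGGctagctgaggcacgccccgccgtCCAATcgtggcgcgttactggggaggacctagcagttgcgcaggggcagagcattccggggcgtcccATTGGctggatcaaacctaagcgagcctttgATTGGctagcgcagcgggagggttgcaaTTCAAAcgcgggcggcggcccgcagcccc
Mki67, chr7:135716380-135716629, minus strand: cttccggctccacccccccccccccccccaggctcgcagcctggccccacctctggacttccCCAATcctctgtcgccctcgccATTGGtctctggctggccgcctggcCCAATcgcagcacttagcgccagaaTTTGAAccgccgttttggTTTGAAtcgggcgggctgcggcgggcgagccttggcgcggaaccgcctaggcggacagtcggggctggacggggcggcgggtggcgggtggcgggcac
Col1a2, chr6:4505368-4505617, plus strand: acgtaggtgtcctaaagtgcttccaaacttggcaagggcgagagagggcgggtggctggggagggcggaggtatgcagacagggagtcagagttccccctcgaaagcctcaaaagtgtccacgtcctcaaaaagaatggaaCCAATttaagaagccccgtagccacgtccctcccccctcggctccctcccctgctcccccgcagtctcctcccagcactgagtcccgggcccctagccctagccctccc
Top2a held 6 matches to CCAAT and 2 to TTTGAA, Ube2c 6 and 1, Mki67 3 and 2, and Col1a2 1 and 0. Of the 9 division genes, 8 were in the RefSeq table, and 7 of them held CCAAT and 5 held TTTGAA in at least 1 listed promoter. Counted the same way per gene, over these 250 bases, the shares were 37.5% and 18.3% of the 27025 genes of the table, and 33.8% and 16.0% of its 32851 promoters. Of 7 matrix genes past 2-fold, 4 were in the table, and 2 of them held CCAAT and 1 held TTTGAA. Such elements were known beforehand in the 3 division promoters shown, so these shares are no evidence from the present data. A match is a description of the letters and not of a binding site. Stmn1, Col1a1, Eln and Fbn2 were not matched.

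Receptors for the hormones of puberty were present at both ages. Prlr, the prolactin receptor, had 22.2 CPM in puberty against 7.16 in the adult, 8.75 in placebo 1 and 7.28 in placebo 2, a ratio of 3.10 (2.79 to 3.45). Esr1, the oestrogen receptor α, had 79.5 and 56.1 CPM (1.42), and Ghr, the growth hormone receptor, had 67.5 and 42.3 (1.599). Pgr, the progesterone receptor, had 43.5 and 41.1 CPM in the stages but 9.59 and 13.7 in the placebo libraries. Greb1, a gene induced by oestrogen, had 19.04 and 28.6 CPM in the stages and 6.03 and 6.82 in the placebo libraries. For Pgr and Greb1 the split was thus between the stage libraries and the placebo libraries, not between the ages. Igf1, the growth factor that growth hormone induces in stroma, had 402 CPM in puberty, 231 in the adult, and 259 and 234 in the placebo libraries, a ratio of 1.74 (1.71 to 1.78). Of 15 measured receptors and hormone-responsive genes 1 was at least 2-fold higher and 2 lower, and of 13 genes of the IGF axis 0 and 1, beside 0.850% higher and 0.712% lower over all genes.

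Among 18 measured genes of steroid and sterol synthesis 2 were at least 2-fold higher in puberty and 1 lower, with a median log2 difference of 0.30. The lower one was Hsd11b1, which regenerates active glucocorticoid inside cells, with 34.8 CPM in puberty against 92.1 in the adult, 141 in placebo 1 and 135 in placebo 2, a ratio of 0.378. The genes past 2-fold higher were Akr1c18, which inactivates progesterone, with 272 CPM against 125, 148 and 144 (2.17), and Scd2, a fatty acid desaturase, with 190 against 73.8, 123 and 128 (2.57). Both stood above all 3 libraries at 9 weeks, but by less than 2-fold above the placebo libraries. The 2 hormone-responsive genes past 2-fold lower were Zbtb16 and Fkbp5, both known glucocorticoid and progestin target genes, with 22.99 against 65.4 CPM (0.351) and 9.09 against 21.9 (0.415). Zbtb16 had 26.7 and 55.3 CPM in the placebo libraries, and Fkbp5 had 14.3 and 15.03, so the gap of Fkbp5 to either placebo library was under 2-fold (0.637 and 0.605).

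Of 8 markers of the fibroblast class that the study named adipogenesis-regulatory, 2 were at least 2-fold higher in puberty and 1 lower, with a median log2 difference of 0.74. Those markers were listed with earlier results of these data known and are no independent evidence. Summed, they had 368 CPM in puberty against 275 in the adult, but 468 and 421 in the placebo libraries, so the direction of the sum turned with the 9-week library used. Clec11a, a secreted growth factor for bone-forming cells, had 51.9, 19.4, 24.6 and 23.3 CPM in puberty, adult, placebo 1 and placebo 2 (ratio 2.67). F3, tissue factor, had 40.2 CPM against 17.8, but 90.5 and 72.7 in the placebo libraries, so its direction turned with the 9-week library used. Rgs2, a regulator of G protein signalling, was lower, with 26.0 CPM against 67.0, 86.7 and 77.1. Within the Hedgehog pathway Hhip, an inhibitor that the pathway itself induces, had 8.87 CPM against 2.95 (3.003), but 6.996 and 6.31 in the placebo libraries, within 2-fold of puberty. Gli1, another target, had 3.14 and 2.37 CPM, and Ptch1 had 6.53 and 6.68. Of the 10 measured Hedgehog genes 2 were at least 2-fold higher and 0 lower, but 7 were below the adult by any amount, near the 68.3% over all genes, and the median log2 difference was -0.10.

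The genes lowest in puberty encode mainly secreted enzymes and matrix proteins. Pla2g7 (chr17:43568098-43612201), a secreted phospholipase that breaks down platelet-activating factor, had 1.25 CPM in puberty against 13.2 in the adult, 38.1 in placebo 1 and 31.7 in placebo 2, a ratio of 0.0947 (0.0719 to 0.123). Igfbp2, an IGF-binding protein, had 1.70, 14.2, 41.1 and 31.4 CPM (0.120). Hmcn1 (chr1:150562524-150993435), a very large extracellular matrix protein, had 5.73, 41.1, 72.5 and 53.8 CPM (0.139). Hc, complement component C5, had 3.32, 21.1, 59.2 and 48.3 CPM (0.157). For all 4 genes puberty was the lowest library and the placebo libraries were above the adult, so the gap to the placebo libraries was wider. A Hmcn1 UMI was found in 0.913% of thinned pubertal and 7.63% of thinned adult cells (2.60% and 14.2% unthinned), and in none of the 69 and 54 endothelial barcodes. Igfbp2 was held by few cells: the 10 cells with most UMIs carried 65.1% of them in puberty and 30.5% in the adult.

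Among single genes named for their ratio or list, the following were also lowest in puberty, although of 15 measured basement membrane genes only Lamc3 was past 2-fold lower, with a list median of 0.03. Lamc3, a laminin chain, had 2.79 CPM in puberty against 16.1 in the adult, 18.6 in placebo 1 and 15.4 in placebo 2 (ratio 0.174). Scg3, a granin of secretory granules, had 24.2, 114, 131 and 109 CPM (0.213, 0.200 to 0.226), and its UMIs were found in 3.71% of thinned pubertal and 13.05% of thinned adult cells (9.61% and 22.97% unthinned). Galnt15, which starts O-linked glycans, had 12.2, 41.9, 36.8 and 42.0 CPM (0.292). The 9-week libraries lay close together for these 3 genes. Myoc, a secreted glycoprotein, had 118 CPM against 349, 157 and 237 (0.337), and Pla1a, a phosphatidylserine lipase, had 154 against 450, 366 and 358 (0.343). Cldn11, a tight junction protein, stood apart: it had 6.24 CPM in puberty and 29.6 in the adult, but 6.26 and 7.54 in the placebo libraries, so the adult stood apart from the other 3 libraries.

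**Figure D4:**
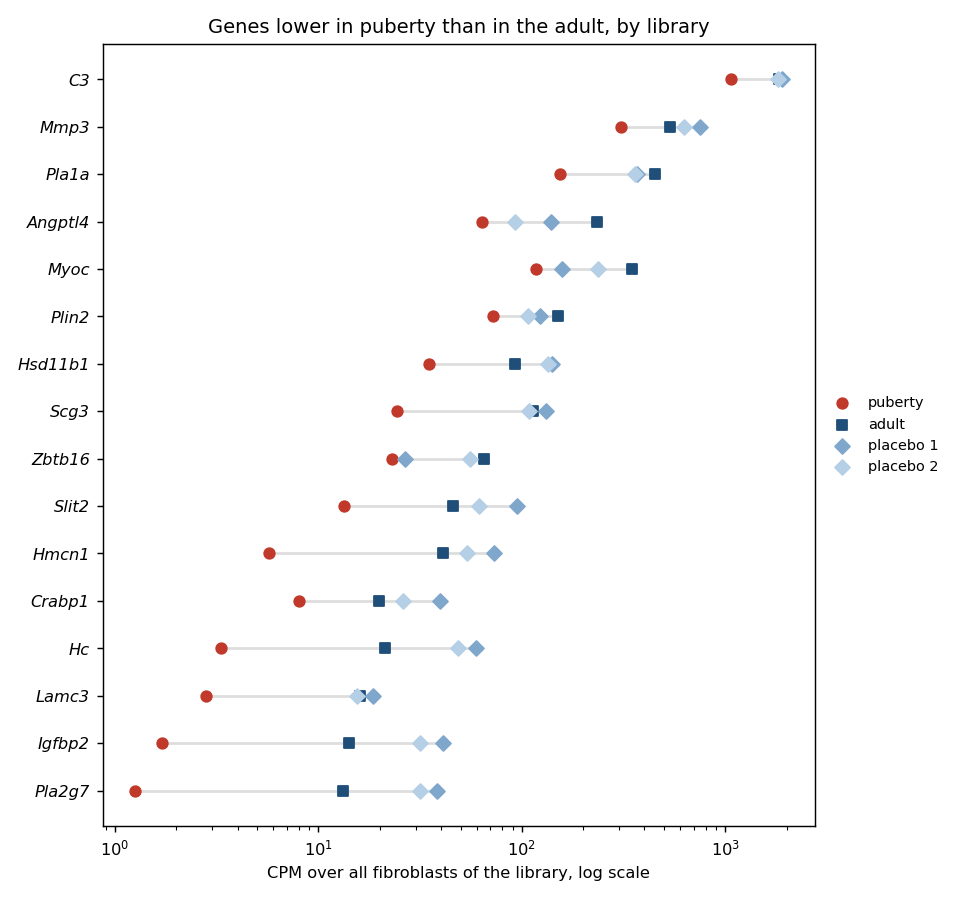
CPM (horizontal, log scale) of 16 genes chosen among those lower in puberty than in the adult, with red circles for puberty, dark squares for the adult and diamonds for placebo 1 and placebo 2. Puberty is the lowest of the 4 libraries for each gene, with 1.25 CPM of Pla2g7 against 13.2, 31.7 and 38.1, and the gap to the nearest other library is small for Zbtb16 (22.99 and 26.7 CPM).

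Some genes of lipid metabolism were also lower. Angptl4, a secreted inhibitor of lipoprotein lipase, had 63.9 CPM in puberty against 233 in the adult, 138 in placebo 1 and 92.7 in placebo 2, a ratio of 0.274 (0.264 to 0.285). Plin2, which coats lipid droplets, had 72.1, 151, 123 and 108 CPM (0.478). Both are known targets of PPAR receptors, and the adult library was the highest of the 4 for each. Of 20 measured genes of adipogenesis and lipid handling 1 was at least 2-fold higher and 1 lower, with a median log2 difference of 0.16, so the list as a whole did not stand below the other genes. Car3, the carbonic anhydrase of fat cells, was the higher one, at 38.5 CPM against 16.1, 12.8 and 9.72. Without thinning, an Angptl4 UMI was found in 25.8% of pubertal and 58.9% of adult fibroblasts, and in 25 of 69 and 26 of 54 endothelial barcodes. For Car3 it was 3.45% and 2.05% of fibroblasts, and 8 of 69 and 17 of 54 of those barcodes. The part of other cells or free RNA in these levels was not tested.

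Guidance molecules that were past 2-fold were all lower in puberty. Slit2, the ligand of Robo receptors and a known brake on ductal branching, had 13.4 CPM in puberty against 45.9 in the adult, 94.1 in placebo 1 and 61.6 in placebo 2, a ratio of 0.292. Nrp2, a semaphorin receptor, had 3.63 CPM against 9.26, 19.1 and 16.5 (0.392), and Sema3e had 3.82 against 8.94, 12.4 and 12.6 (0.427). Of 21 measured guidance genes 3 were lower and 0 higher, while the median of the list was 0.07. Crabp1, a retinoic acid binding protein, had 8.02, 19.8, 39.7 and 26.0 CPM (0.406). Runx2, the transcription factor of bone formation, had 4.66, 11.1, 27.7 and 18.3 CPM (0.421). Inhbb, a subunit of activin and inhibin, had 2.73 CPM against 8.92, 9.34 and 6.70 (0.306), and Nkd2, an inhibitor of Wnt signalling, had 4.56 against 9.86, 16.8 and 12.5 (0.462). In the opposite direction Chrdl1, a BMP antagonist, had 117 and 56.7 CPM (2.07), with 110 in both placebo libraries.

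Immediate early and heat shock genes, which cell dissociation is known to induce, were below the adult by any amount in 29 of 33 measured cases, beside 68.3% of all genes. Of 33 measured members 0 were at least 2-fold higher and 2 lower, the median log2 difference was -0.34, and 22 stood below the 9-week range and 1 above, beside 37.2% and 20.1% over all genes. The pair past 2-fold were the near-identical inducible heat shock genes Hspa1a, with 122 CPM in puberty against 309 in the adult, 196 in placebo 1 and 256 in placebo 2 (0.395), and Hspa1b, with 75.6, 225, 223 and 256 (0.336). Egr1 had 3153 CPM against 4861, 5813 and 5038 (0.649). Arc, an immediate early gene outside the list, had 6.22 CPM against 22.1, 31.9 and 18.4 (0.281). The part of tissue handling in these values was not tested. Among genes with large differences in RNA amount, C3, the central complement protein, had 1068 CPM against 1838, 1905 and 1810 (0.581), Mmp3, stromelysin, had 308 against 537, 752 and 628 (0.573), and Tppp3, a tubulin-binding protein known from tendon sheath progenitors, had 319 against 558 (0.573). For Tppp3 the placebo libraries had 320 and 347 CPM, close to puberty.

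Other lists had few or no genes past 2-fold. Of 15 progenitor markers of the study's Pi16 class 0 passed 2-fold, and the median was -0.15. Pi16 had 1274 and 1500 CPM, Cd34 831 and 885, and Ly6a 3313 and 3644. Of 11 preadipocyte and 10 lobular-like markers 0 passed 2-fold. These marker lists, too, were chosen with earlier results of these data known. None of 31 interferon-induced genes, 18 genes of MHC class I, 14 Hox genes and 16 cell cycle inhibitors and p53 targets passed 2-fold either. The list of complement genes, which does not hold Hc, had 10 measured members, of which 0 passed 2-fold, with a median of -0.22 and 7 below the 9-week range. The chemokines Cxcl9 and Cxcl10, which interferon induces, were past 2-fold (2.15 for both), with 131 and 61 CPM of Cxcl9 and 638 and 297 of Cxcl10, but the placebo libraries had 197 and 138 and 728 and 423 CPM. Of 82 ribosomal protein genes 0 passed 2-fold and the median was -0.02. All 13 mitochondrially encoded genes were higher in puberty by less than 2-fold, with a median of 0.46.

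**Figure D5:**
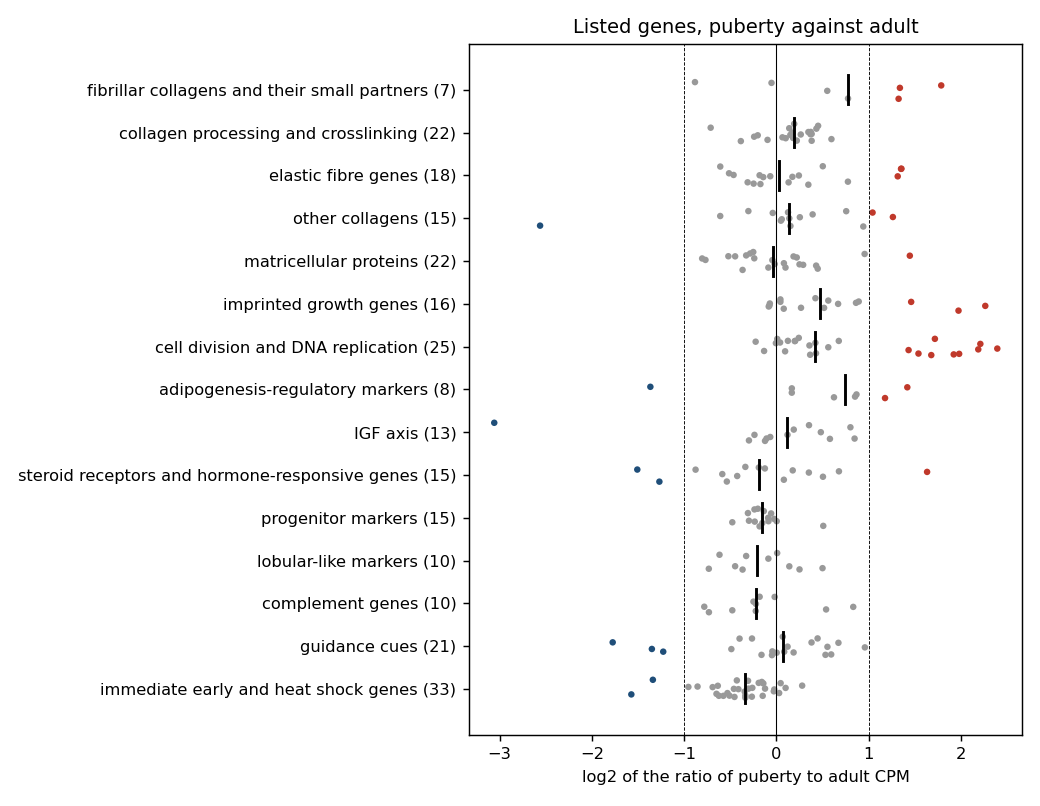
Log2 of the ratio of puberty to adult CPM (horizontal) for every gene past the level filter in 15 gene lists, with the number of such genes in parentheses; black bars are list medians, dashed lines mark 2-fold, and red and blue points lie past it. The fibrillar collagens have a median of 0.78 and the division genes a group of 9 points right of the dashed line, whereas immediate early and heat shock genes have a median of -0.34.

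The ratios of the named genes were also taken within fibroblasts that held a UMI of 1 marker, which does not define a kind of fibroblast. Fibroblasts with a UMI of Pi16, a progenitor marker, of Thbs4, a lobular-like marker, of Gdf10, an adipogenesis-regulatory marker, or of Fabp4, a preadipocyte marker, were summed apart, and these sets overlap. Pi16 was found in 65.1% of the fibroblasts of both libraries, Thbs4 in 10.1% in puberty and 14.3% in the adult, Gdf10 in 24.6% and 18.2%, and Fabp4 in 15.9% and 17.2%. Thinned to 2000 UMIs the shares were 55.8% and 54.8%, 7.81% and 11.3%, 14.1% and 8.90%, and 11.4% and 12.8%. Pi16 was also found in 3 of 69 and 9 of 54 endothelial barcodes, Thbs4 and Gdf10 in 1 of 69 and 0 of 54, and Fabp4, itself a gene of endothelium, in all of them. The Col1a1 ratio was 3.82 in Pi16 cells, 2.87 in Thbs4 cells, 3.01 in Gdf10 cells and 2.24 in Fabp4 cells. For Cpz it was 8.83, 4.82, 6.54 and 5.27, and for Hmcn1 0.120, 0.346, 0.123 and 0.176. Of the 43 named genes higher in puberty 41 were on the same side in all 4 sets and 26 past 2-fold in all 4. Of the 29 lower ones these were 26 and 18. The genes were chosen for passing 2-fold over these same cells, of which Pi16 cells alone were 65.1%. Agreement of side was thus largely fixed in advance, and the same counts over all genes were not made. Crabp1 differed between the sets, with a ratio of 0.289 in Pi16 cells and 1.05 (0.754 to 1.45) in Thbs4 cells. The latter rests on 59 pubertal UMIs, and 10 cells held 51.2% of all pubertal Crabp1 UMIs and 10.9% of the adult ones. Runx2 and Rgs2 had ratios of 1.18 and 1.03 in Thbs4 cells.

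Some genes past 2-fold were markers of other cells. Hbb-bs, a β-globin of red cells, had 1207 UMIs in puberty against 1 in the adult (ratio 1829, 328 to 72306), and 1194 of them lay in a single barcode. Acta2, smooth muscle actin, had 45.7 CPM against 17.8, 25.7 and 43.0 (2.57), with 30.5% of its UMIs in 10 pubertal cells and 58.0% in 10 adult cells. Summed over whole marker lists, the pubertal fibroblasts had 69.3 CPM against 37.2 in the adult for pericytes and smooth muscle. The placebo libraries had 63.9 and 67.4 CPM of this list, close to puberty. For fat cells the stages had 40.7 and 16.9 CPM, of which Car3 alone gave 38.5 and 16.1, and the placebo libraries 13.7 and 10.5. The stages had 24.6 and 33.1 CPM for luminal epithelium, with 33.4 and 29.5 in the placebo libraries. For endothelium they had 24.8 and 28.2, with 15.0 and 15.2 in the placebo libraries. For immune cells the pubertal sum was 5.73 CPM against 4.37, with 2.82 and 2.11 in the placebo libraries. The sums were 8.68 against 4.46 CPM for skeletal muscle, 48.5 against 0.176 for red cells and 186 against 199 for keratinocytes, and that for Schwann cells is not reported here. Before the choice of fibroblasts, 905 of 8410 pubertal barcodes and 485 of 12832 adult barcodes lay below the fibroblast threshold, with 75 and 24 of them marked as Schwann cells, 172 and 69 as pericytes and 56 and 1 as skeletal muscle. The part of these cells in the other genes described was not tested.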

How the data were processed

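Droplet libraries (10x 3′ v3) of sorted mammary stroma from wildtype females were used. Per the labels and the processing notes, the authors made the gene-by-barcode matrices with Cell Ranger 6.1.2 on mm10, and the deposited values are raw UMI counts without normalization or further cell filters. Fibroblast barcodes were chosen as described above, with no doublet removal in the main values. Counts were summed per library and divided by the total, and the ratio of puberty to adult CPM was taken with a Clopper-Pearson counting interval at the 95% level (Python 3.11.15, scipy 1.17.1). Genes with a mean of at least 5 CPM were compared against a 2-fold limit. The text names, among genes with a mean of at least 10 CPM, the 12 highest and 12 lowest ratios and the 6 largest CPM differences each way at a ratio of at least 1.5, then for each list the genes past 2-fold or, with none, the most abundant member. Mitochondrial and ribosomal protein genes and unnamed gene models were not named singly. This gave 92 genes, a few of which are not reported here, and other list members given beside them, and the genes in the figures, were picked after their values were seen. The members and lists were chosen with earlier results of these data known. Positions are from GENCODE M21 (99.8% of the 32285 gene identifiers matched), and promoters from RefSeq on GRCm38.p6. Cells with most doublet-like profiles (Scrublet in scanpy 1.11.5) were dropped in 1 alternative, 7.54% of pubertal and 10.6% of adult fibroblasts. TMM factors were from edgeR 4.0.16. The ratio and its interval were run on simulated library sums that held counting error alone, which is what the interval assumes. That run cannot show how the interval fares where UMIs cluster in few cells.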

Additional observations from a re-analysis of the deposited data

How the results depend on the processing

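With 1 library per stage, no spread between mice could be measured, and counting intervals do not cover it. The counts of 80 higher and 67 lower genes stayed within 1.5 times under TMM or median-of-ratios scaling, totals without mitochondrial and ribosomal protein genes, equal weight per cell, thinning, and all the other barcode filters. Their balance was less stable, with 101 higher and 58 lower under median-of-ratios scaling but 89 higher and 95 lower with thinning. Median-of-ratios scaling set the median of all genes, -0.10 on the log2 scale in the values above, to about 0, so small differences there are relative to that shift. With placebo 1 in place of the adult the counts were 138 and 409, and with placebo 2 they were 174 and 361. With a mean of at least 1 CPM they were 253 and 154, with at least 20 CPM 35 and 25, and with no level filter 1541 and 803. The share of fibroblasts with a UMI of Mki67 or Top2a was 3.03% in puberty and 0.728% in the adult without thinning, and 0.536% in the adult thinned to 3000 UMIs. Of the 72 named genes past 2-fold, 50 were past it with placebo 1 and 54 with placebo 2, and 70 to 72 with the other alternatives, where Hbb-bs had no adult UMI left in some. The ratio turned for F3 (0.445 with placebo 1 and 0.553 with placebo 2), Cxcl9 (0.666 and 0.948) and Cxcl10 (0.877 with placebo 1); the cause was not tested. An alternative chosen after seeing the data left out the 10 cells with most UMIs of a gene in each library, and Crabp1 then had a ratio of 0.222 and Cenpf of 12.05, while Top2a had 6.84, Mki67 7.86, Ube2c 6.86, Hist1h2ap 11.99, Acta2 4.25 and Igfbp2 0.0604. Ratios also moved by over 1.5 times for Cenpf (8.05) and Acta2 (6.02) with a fibroblast threshold of 100, Acta2 (4.63) with more markers of other cells excluded, Top2a (6.88), Hist1h2ap (7.02) and Crabp1 (0.248) with thinning, and Crabp1 (0.236) with equal weight per cell. No paired analysis was possible because puberty and adult have 1 library each.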
